A study of Homo sapiens with 6 samples.

Results

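The 10 genes described here encode enzymes that remove reactive aldehydes, ketones, quinones and peroxides: 3 aldehyde dehydrogenases (ALDH1A1, ALDH1A3 and ALDH3A1), 4 aldo-keto reductases (AKR1B10, AKR1C1, AKR1C2 and AKR1C3), the glutathione peroxidase GPX2, the quinone reductase NQO1 and GCLM, a subunit of the enzyme that starts glutathione synthesis. They were selected by name with their levels in these same libraries known, out of 58735 gene IDs of which 19951 are protein-coding. All 10 were found by their GENCODE v29 names in each of the 6 libraries. Because the members were chosen by these values, their levels and differences are given as a description, with no test. Tests were made only on 134 related genes that are not members. The lists that hold them were also chosen with earlier results of these data known, so their counts and p-values are no independent support.

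RNA of NCI-N87, an established human gastric carcinoma line known for amplification of the receptor gene ERBB2, was sequenced after knockout of KRT17 (groups KO1 and KO2) and in the wild-type line (WT), with 2 libraries in each of the 3 groups. KRT17 encodes a keratin of stressed and stratified epithelia. The labels give the same line for all 6 libraries and name no other allele or agent. The sources used here name neither what separates KO1 from KO2 (guides, clones or pools) nor the origin of the replicates, and spreads between replicates may be technical.

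Aldehyde dehydrogenases oxidise aldehydes to acids. ALDH1A1 and ALDH1A3 turn retinal into retinoic acid, a ligand of nuclear receptors, and ALDH1A1 activity is widely used to mark stem-like cells in epithelial tumours. Aldo-keto reductases work in the other direction and reduce aldehydes and ketones, including steroids and prostaglandins, to alcohols, while glutathione peroxidases use glutathione to reduce peroxides. Many of these genes, among them NQO1, GCLM, GPX2 and several aldo-keto reductases, are known targets of the transcription factor NRF2 (gene NFE2L2), which KEAP1 holds back by directing its degradation.

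The files gave FPKM, fragment numbers normalised for exon length and for sequencing depth. The length was that of all annotated exons of a gene together, so levels, ranks and shares compare only roughly between genes. The read numbers recovered from them were 22674967 and 21881775 in KO1, 18627921 and 17600600 in KO2, and 22853937 and 19619835 in WT, and 1 read in a gene of 1 kb was worth 0.0429 to 0.0544 FPKM. KRT17 was at 2.29 to 2.40 FPKM in KO1 and 10.4 to 11.3 FPKM in KO2, against 739 to 753 FPKM in WT. Markers of the labelled line differed as much: ERBB2 was at 5.82 ± 0.360 FPKM in KO1 and 5.29 ± 0.0233 in KO2, against 1387 ± 46.4 in WT, and KRT19, a keratin of simple epithelia, was at 0.0937 ± 0.0806 FPKM in KO1 and at 0 reads in KO2, against 1728 ± 47.4 in WT (SD, n = 2 each). The 10 gastric carcinoma markers summed to 423 to 433 FPKM in KO1 and 381 to 382 in KO2, against 5089 to 5260 in WT, but 3 of the 10 were higher in the knockout groups. These were MUC1, a mucin, at 30.4 ± 0.297 FPKM in KO1 and 48.0 ± 1.76 in KO2, against 5.52 ± 0.00754 in WT, and the low CLDN18 (0.857 in KO1 and 0.943 in KO2, against 0.0460 in WT) and CDH17 (0.416 in KO1 and 0.592 in KO2, against 0.118 in WT). The 8 fibroblast markers summed to 44.5 to 45.0 FPKM in KO1 and 55.3 to 57.8 in KO2, against 0.760 to 0.907 in WT. Of these, PDGFRA had 0 reads in every library and COL1A2 was at 0.0154 FPKM in KO1 and 0.00483 in KO2. A chi-square over gene counts gave 309 to 357 per degree of freedom between knockout and WT libraries, and 24.5 to 25.3 between KO1 and KO2. Whether the knockout and WT libraries come from cells of the same line was not tested: the labels say so, while the levels of ERBB2, KRT19 and, further below, GSTM1 differ between them. The part of these cell features in the results below was not tested, and an effect of KRT17 loss cannot be told apart from any other difference between the knockout and WT cells. In bulk RNA, fewer cells of a type and less RNA per cell cannot be told apart either.

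Of the 10 members, 5 were lower in all 4 knockout libraries than in both WT libraries (ALDH1A1, ALDH1A3, ALDH3A1, GPX2 and NQO1), 3 were higher in all 4 (AKR1C1, AKR1C2 and AKR1C3) and 2 overlapped (AKR1B10 and GCLM). In the fit across all genes, 40.5% of 16046 tested genes were called higher and 40.1% lower in the knockout average. These shares were 14.7% and 14.6% with a difference of at least 1 on the log2(FPKM + 1) scale also required. For low genes that is more than 2-fold in FPKM. All these shares count limma calls, which is another measure than separation of libraries. The share of all genes so separated was not counted. Nothing is read from the count of members since the same values chose the genes. A gene was tested if it reached 1 FPKM in at least 2 libraries. Of the members 8 passed, and AKR1B10 and AKR1C1 did not. The standard error (SE) and p of a knockout average cover the spread between libraries within a group, not the spread between KO1 and KO2.

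**Figure D1:**
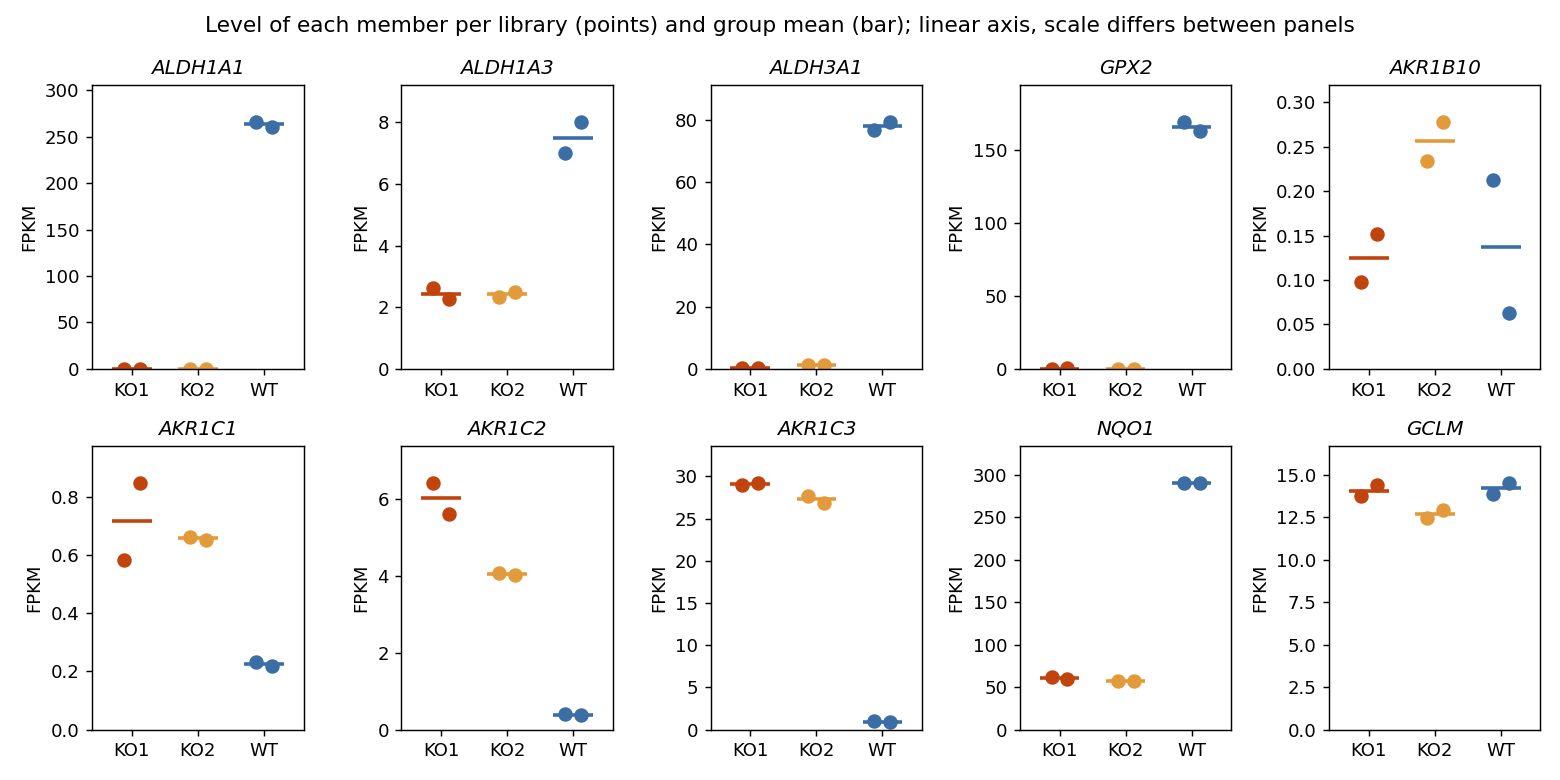
Level of each of the 10 genes in FPKM (linear axis, own scale in each panel) in KO1, KO2 and WT; each point is 1 library and each horizontal bar is a group mean. ALDH1A1, ALDH3A1 and GPX2 lie near 0 in KO1 and KO2 and at 263, 78.1 and 166 FPKM on average in WT, AKR1C3 lies at 29.1 and 27.3 FPKM in KO1 and KO2 and at 0.912 FPKM in WT, and GCLM lies between 12.4 and 14.5 FPKM in all 6 libraries.

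ALDH1A1 (ENSG00000165092, GRCh38 chromosome 9, 72900662 to 73080442, minus strand), the cytosolic retinal dehydrogenase, was the member with the largest difference from WT on the log2 scale. It was at 0.0451 and 0.0309 FPKM in KO1 and at 0 and 0.0378 FPKM in KO2, against 266 and 261 FPKM in WT. The knockout libraries held 3, 2, 0 and 2 reads, which is near the detection limit, while the WT libraries held 16350 and 13647. KO1 kept 0.0144% of the WT level (95% Poisson interval 0.00470% to 0.0338%) and KO2 kept 0.00718% (0.000847% to 0.0253%); these intervals, from the reads of the knockout libraries, cover counting error only. Among protein-coding genes ALDH1A1 ranked 94 by level in WT. On the log2(FPKM + 1) scale, where the added 1 shrinks the differences of low genes, the knockout average was -8.01 ± 0.04 relative to WT (SE). No 75-base window of its transcripts occurs in the transcripts of another gene, so its reads can be placed.

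ALDH3A1 (ENSG00000108602, chromosome 17, 19737984 to 19748943, minus strand) oxidises medium-chain and aromatic aldehydes, including products of lipid peroxidation, and is abundant in cornea and stomach. It was at 0.241 and 0.292 FPKM in KO1 and at 1.28 and 1.25 FPKM in KO2, against 76.9 and 79.3 FPKM in WT. Both KO2 libraries lay above both KO1 libraries, 4.74-fold on average, and all 4 lay far below WT. KO1 kept 0.341% of the WT level and KO2 1.62%, from 48 reads in KO1, 189 in KO2 and 12213 in WT. The log2 differences from WT were -5.97 ± 0.05 in KO1 and -5.13 ± 0.05 in KO2.

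ALDH1A3 (ENSG00000184254, chromosome 15, 100877714 to 100916626, plus strand), the other retinal dehydrogenase among the members, differed by less. It was at 2.61 and 2.27 FPKM in KO1 and at 2.33 and 2.51 FPKM in KO2, against 6.996 and 8.01 FPKM in WT. The knockout groups overlapped each other and kept 32.6% of the WT level in KO1 and 32.3% in KO2. The knockout average was -1.31 ± 0.08 on the log2 scale. Of its exon bases 28.6% overlap other annotated genes, among them the antisense AC015712.2, and the sources used here do not say whether counting used strand, which leaves its level uncertain.

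GPX2 (ENSG00000176153, chromosome 14, 64939152 to 64942905, minus strand) is the glutathione peroxidase of gastrointestinal epithelium and a known NRF2 target. It was at 0.114 and 0.323 FPKM in KO1 and at 0.170 and 0.0359 FPKM in KO2, against 169 and 163 FPKM in WT. The knockout libraries held 4, 11, 5 and 1 reads and overlapped each other, and the WT libraries held 5471 and 4482. KO1 kept 0.132% of the WT level (95% Poisson interval 0.0733% to 0.216%) and KO2 kept 0.0621% (0.0232% to 0.138%). The knockout average was -7.17 ± 0.09 on the log2 scale, and in WT the gene ranked 172 among protein-coding genes.

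NQO1 (ENSG00000181019, chromosome 16, 69706996 to 69726951, minus strand) reduces quinones with NADH or NADPH and is a standard readout of NRF2 activity. It was at 61.7 and 60.2 FPKM in KO1 and at 57.7 and 57.1 FPKM in KO2, against 291 and 290 FPKM in WT. KO1 kept 21.0% of the WT level and KO2 19.8%, and the groups did not overlap. Even so it stayed among the more abundant transcripts, with rank 560 in the knockout mean and 83 in WT. The knockout average was -2.28 ± 0.02 on the log2 scale. An annotated gene on the other strand, AC092115.2, overlaps 17.7% of its exon bases.

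GCLM (ENSG00000023909, chromosome 1, 93885205 to 93909456, minus strand), the modifier subunit of glutamate-cysteine ligase and also a known NRF2 target, stayed close to the WT level. It was at 13.7 and 14.4 FPKM in KO1 and at 12.4 and 12.9 FPKM in KO2, against 13.9 and 14.5 FPKM in WT. KO1 overlapped WT and KO2 lay just below it, at 99.0% and 89.3% of the WT mean. The knockout average was -0.08 ± 0.04 on the log2 scale, and its sign changed with the scaling (0.02 with quantile normalization and 0.06 with total reads as the only scaling), so no direction is given.

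The starts of 3 of these NRF2 target genes are shown with the matches to one core pattern of the element that NRF2 binds. The core searched was TGACNNNGC, on both strands, in the 250 bases before each RefSeq start on GRCh38.p14; capitals mark the match, which in both genes lies on the strand opposite the gene.
GPX2 promoter, chr14:64942746-64942995, minus strand: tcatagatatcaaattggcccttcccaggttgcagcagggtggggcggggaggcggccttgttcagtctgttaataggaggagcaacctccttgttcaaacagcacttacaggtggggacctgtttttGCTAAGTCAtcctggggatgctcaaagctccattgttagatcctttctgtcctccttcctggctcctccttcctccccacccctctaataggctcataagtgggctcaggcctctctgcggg
NQO1 promoter, chr16:69726561-69726810, minus strand: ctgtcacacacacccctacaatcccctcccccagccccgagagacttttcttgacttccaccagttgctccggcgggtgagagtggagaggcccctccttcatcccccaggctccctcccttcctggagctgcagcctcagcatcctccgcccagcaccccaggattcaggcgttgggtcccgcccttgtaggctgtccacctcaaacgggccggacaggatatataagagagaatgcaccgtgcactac
GCLM promoter, chr1:93909431-93909680, minus strand: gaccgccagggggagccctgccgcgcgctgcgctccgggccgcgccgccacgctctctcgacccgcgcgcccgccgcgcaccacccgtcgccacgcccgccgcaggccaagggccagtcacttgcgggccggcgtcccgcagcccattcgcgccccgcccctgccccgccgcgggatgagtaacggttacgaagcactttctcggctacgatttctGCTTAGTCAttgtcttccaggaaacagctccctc
GPX2 holds 1 match (TGACTTAGC), 122 to 114 bases before the start, and GCLM holds 1 (TGACTAAGC), 34 to 26 bases before it. NQO1 holds none in this window, which says only that these letters are not there. Of the 8 members with a RefSeq promoter entry, 2 held the core, against 3830 of 35116 promoters in the table (10.9%). ALDH3A1 and AKR1B10 were not matched. Of the 2 genes with a match, GPX2 kept 0.132% of the WT level in KO1 and GCLM 99.0%. Whether the match has a part in either level was not tested.

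The 3 AKR1C genes lie side by side on chromosome 10 and encode hydroxysteroid dehydrogenases of overlapping specificity. AKR1C3 (ENSG00000196139, 5035354 to 5107686, plus strand), which also reduces prostaglandins and androgen precursors, was at 28.96 and 29.25 FPKM in KO1 and at 27.7 and 26.9 FPKM in KO2, against 0.971 and 0.853 FPKM in WT. It was 31.9-fold above WT in KO1 and 29.9-fold in KO2, with a knockout average of 3.93 ± 0.04 on the log2 scale. Its rank among protein-coding genes was 1462 in the knockout mean and 10990 in WT. Only 2.87% of its 75-base windows occur in transcripts of other genes, so most of its reads can be placed.

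AKR1C2 (ENSG00000151632, 4987400 to 5018031, minus strand), which inactivates dihydrotestosterone, was at 6.42 and 5.604 FPKM in KO1 and at 4.08 and 4.02 FPKM in KO2, against 0.409 and 0.379 FPKM in WT. Both KO2 libraries lay below both KO1 libraries, and all 4 lay above WT, 15.3-fold in KO1 and 10.3-fold in KO2. AKR1C1 (ENSG00000187134, 4963253 to 4983283, plus strand), which inactivates progesterone, was at 0.582 and 0.848 FPKM in KO1 and at 0.663 and 0.651 FPKM in KO2, against 0.232 and 0.217 FPKM in WT. It stayed below 1 FPKM everywhere but was 3.18-fold above WT in KO1 and 2.92-fold in KO2.

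The coding sequences of AKR1C1 and AKR1C2 are 98.0% identical (950 of 969 bases), and 21.9% of the 75-base windows of AKR1C1 and 30.1% of those of AKR1C2 occur in other genes' transcripts. The sources used here do not say how reads with several best positions were counted, and the split between these 2 genes is uncertain. The 3 genes summed to 35.8 ± 0.184 FPKM in KO1 and 32.0 ± 0.626 in KO2, against 1.53 ± 0.115 in WT (SD, n = 2 each), a ratio of 22.1 for the knockout mean.

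Their promoters are shown because the 3 genes were higher together. Capitals mark the longest runs that all 3 share within the 250 bases before a RefSeq start (GRCh38.p14), 12 bases each. For AKR1C3, which has 2 starts in the table, the upstream one is shown and compared.
AKR1C1 promoter, chr10:4963165-4963414, plus strand: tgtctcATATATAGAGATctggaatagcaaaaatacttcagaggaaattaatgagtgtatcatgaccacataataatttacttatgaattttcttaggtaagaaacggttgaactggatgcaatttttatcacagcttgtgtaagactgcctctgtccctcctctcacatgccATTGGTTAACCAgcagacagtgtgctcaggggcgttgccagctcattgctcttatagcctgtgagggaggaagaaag
AKR1C2 promoter, chr10:5003858-5004107, minus strand: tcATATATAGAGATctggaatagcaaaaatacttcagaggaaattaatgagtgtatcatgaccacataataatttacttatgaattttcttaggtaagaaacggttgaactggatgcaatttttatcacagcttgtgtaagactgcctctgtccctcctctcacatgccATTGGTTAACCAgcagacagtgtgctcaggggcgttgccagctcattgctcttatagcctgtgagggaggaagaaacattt
AKR1C3 promoter, chr10:5048531-5048780, plus strand: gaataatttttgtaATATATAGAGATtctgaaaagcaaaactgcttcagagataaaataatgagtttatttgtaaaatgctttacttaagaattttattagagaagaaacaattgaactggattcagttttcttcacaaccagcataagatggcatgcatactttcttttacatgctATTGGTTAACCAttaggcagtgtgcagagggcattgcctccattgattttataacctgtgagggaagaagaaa
AKR1C1 and AKR1C2 share an unbroken run of 245 bases and are 96.5% identical over the alignment, whereas AKR1C3 is 70.7% identical to AKR1C1 and 68.8% to AKR1C2. The runs ATATATAGAGAT and ATTGGTTAACCA each occur in 5 of 35116 promoters in the table. These 5 include the 3 promoters shown, from which the runs were taken, and a part of the runs in the levels was not tested. The window of the other AKR1C3 start holds ATTGGTTAACCA but not ATATATAGAGAT. None of the 3 windows holds TGACNNNGC on either strand.

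AKR1B10 (ENSG00000198074, chromosome 7, 134527592 to 134541408, plus strand), a reductase of retinal and lipid aldehydes that is often raised in tumours, was barely detected. It was at 0.0983 and 0.151 FPKM in KO1 and at 0.234 and 0.278 FPKM in KO2, against 0.212 and 0.0624 FPKM in WT. KO1 overlapped WT and both KO2 libraries lay above both WT libraries, from 2 to 9 reads per library.

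The members weighed differently in their families. Transcripts of 19 aldehyde dehydrogenase genes summed to 152 ± 2.43 FPKM in KO1 and 167 ± 1.61 in KO2, against 525 ± 3.20 in WT (SD, n = 2 each). In WT, ALDH1A1 alone made up 50.2% of that sum and ALDH3A1 14.9%. The leading genes were ALDH18A1 in KO1 (23.3%), a mitochondrial enzyme of proline synthesis, and ALDH9A1 in KO2 (22.1%), an enzyme of carnitine synthesis; both were singled out after their values were seen.

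The 13 aldo-keto reductase genes went the other way, with a sum of 231 ± 0.173 FPKM in KO1 and 170 ± 1.87 in KO2, against 84.3 ± 5.45 in WT. AKR1B1, aldose reductase, which reduces glucose in the polyol pathway, made up 60.4% in KO1 and 50.3% in KO2, against 36.3% in WT. AKR1C3 made up 12.6% of the sum in KO1 and 16.0% in KO2. The 8 glutathione peroxidase genes summed to 370 ± 7.44 FPKM in KO1 and 382 ± 15.3 in KO2, against 299 ± 2.18 in WT. GPX2 was the main one in WT (55.5%), and GPX1, the general cytosolic form, made up 77.4% in KO1 and 73.3% in KO2, against 21.8% in WT.

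**Figure D2:**
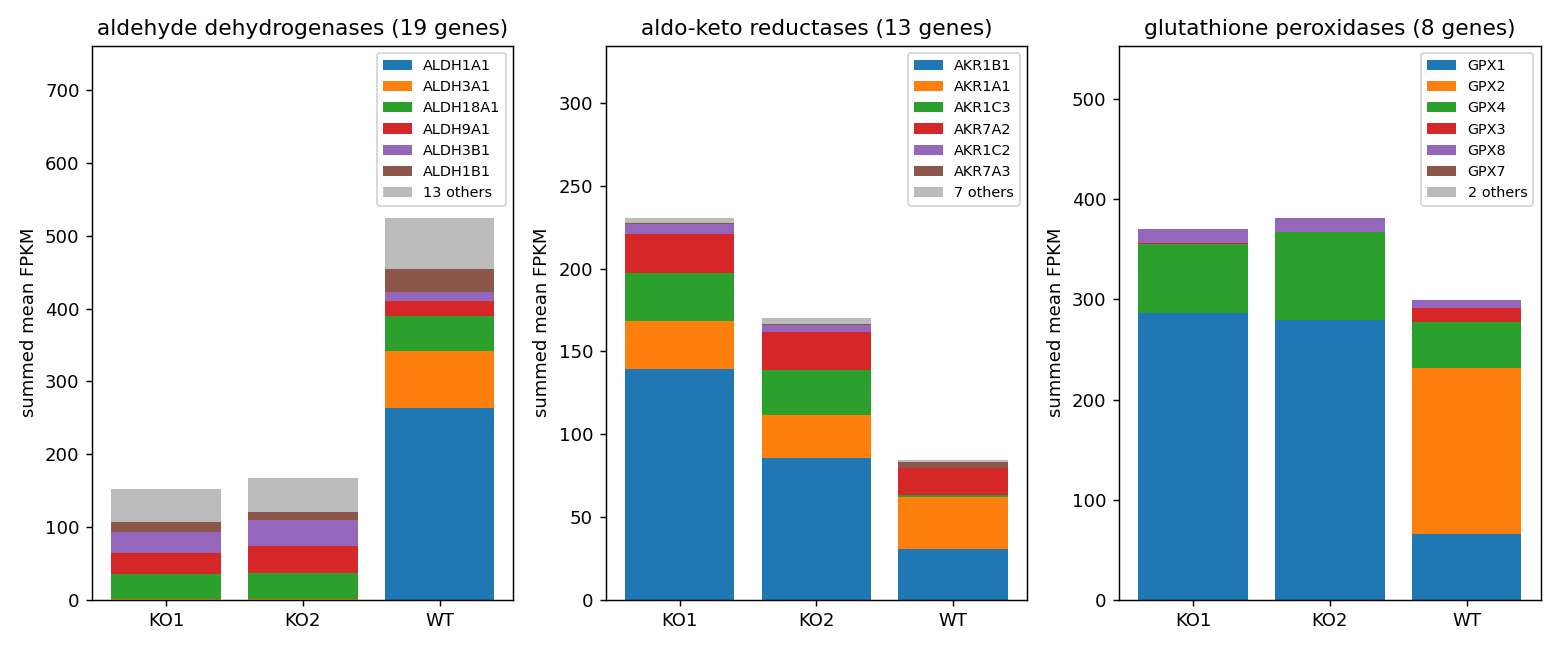
Summed mean FPKM (linear axis from 0) of the aldehyde dehydrogenase, aldo-keto reductase and glutathione peroxidase genes in KO1, KO2 and WT, with the 6 genes that reach the highest group mean shown in colour in each family. The aldehyde dehydrogenase sum is 152 in KO1 and 167 in KO2 against 525 in WT, where ALDH1A1 fills 50.2% of the bar.

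Beyond the members, 109 of the 134 related genes in 7 lists were tested with limma on log2(FPKM + 1), with Benjamini-Hochberg adjustment over all 16046 genes. In the knockout average 53 were called higher (48.6%), 52 lower (47.7%) and 4 were not called, where 40.5% and 40.1% of all tested genes were called. The median was 0.05 on the log2 scale, against 0.02 over all tested genes. Past a difference of 1 on the log2(FPKM + 1) scale, 23 were higher (21.1% of the 109) and 26 lower (23.9%). Of all tested genes 14.7% and 14.6% were. In KO1 55 were higher and 47 lower, where 39.3% and 38.6% of all tested genes were called, and in KO2 54 were higher and 52 lower, where 39.1% and 39.8% were.

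**Figure D3:**
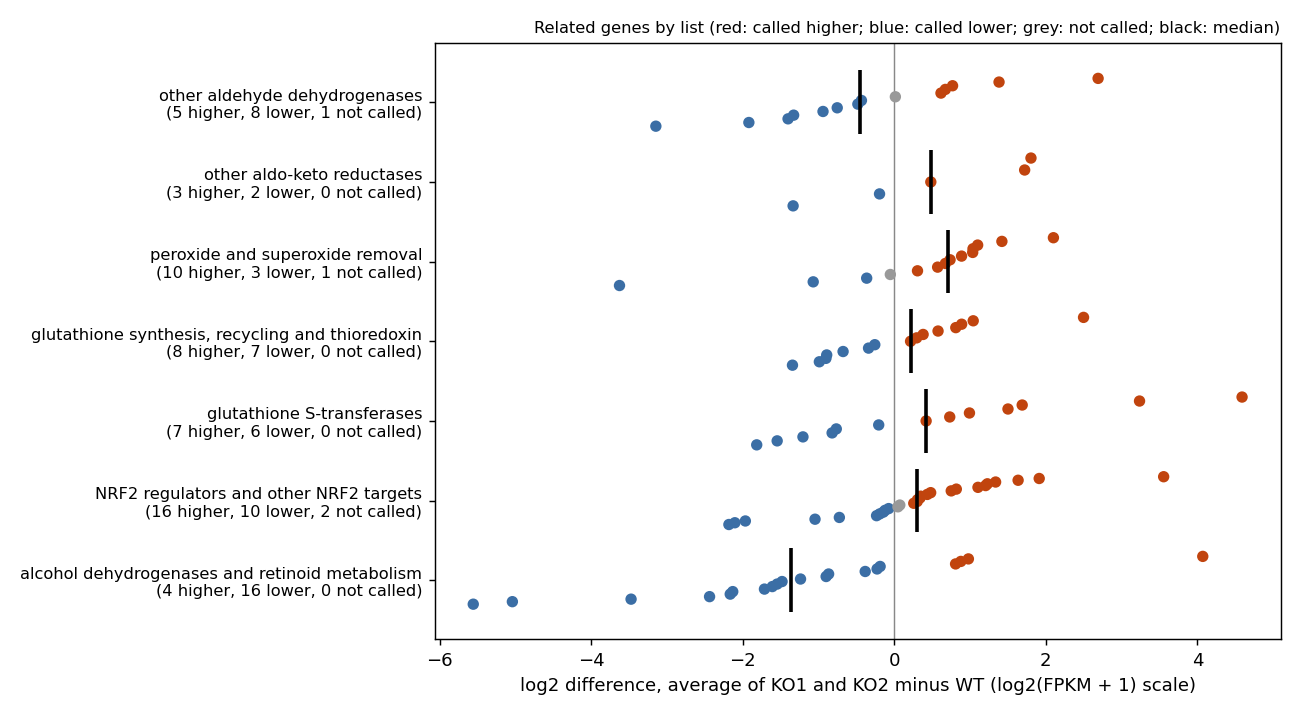
Log2 difference between the mean of both knockout groups and WT (log2(FPKM + 1) scale) for the 109 tested related genes, 1 point a gene, by list; red and blue points were called higher and lower by limma, grey points were not called, and black bars are list medians. The alcohol dehydrogenase and retinoid list has the lowest median (-1.36) and the peroxide list the highest (0.71).

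Of 14 tested other aldehyde dehydrogenases, 5 rose, 8 fell and 1 was not called (35.7% higher and 57.1% lower, against 40.5% and 40.1% of all tested genes), with a median of -0.46. ALDH3B2, a lipid aldehyde dehydrogenase, had 0 reads in KO1 and 1 in KO2, against 7.89 ± 0.0949 FPKM in WT (-3.15 ± 0.06 log2, limma Benjamini-Hochberg adjusted p = 8.64e-07), whereas its neighbour paralog ALDH3B1 rose to 28.96 ± 0.0944 FPKM in KO1 and 35.5 ± 0.870 in KO2, against 11.7 ± 0.147 in WT (1.38 ± 0.03, adjusted p = 8.40e-07). ALDH1A2, the third retinal dehydrogenase, fell to 0.0606 ± 0.0154 FPKM in KO1 and 0.0953 ± 0.0595 in KO2, against 3.08 ± 0.142 in WT. The members ALDH1A1 and ALDH1A3, chosen by these same levels, also lay below WT in both knockout groups. The share of all genes so separated was not counted, and nothing is read from the 3 together. ALDH1L2, the mitochondrial formyl-tetrahydrofolate dehydrogenase, rose to 7.29 ± 0.195 FPKM in KO1 and 6.54 ± 0.0626 in KO2, against 0.225 ± 0.0200 in WT (30.7-fold). ALDH2, the mitochondrial enzyme of acetaldehyde clearance, fell 1.81-fold and ALDH16A1 fell 3.09-fold for the knockout mean.

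Among 5 tested other aldo-keto reductases, 3 rose and 2 fell (60% and 40%, against 40.5% and 40.1% of all tested genes). AKR1B1 rose to 139 ± 1.498 FPKM in KO1 and 85.8 ± 0.363 in KO2, against 30.6 ± 0.911 in WT. Its log2 difference from WT was 2.15 ± 0.03 in KO1, 1.46 ± 0.03 in KO2 and 1.80 ± 0.02 for the average (limma adjusted p = 3.52e-07). It was higher in KO1 than in KO2 (KO2 minus KO1 -0.69 ± 0.03, limma adjusted p = 4.69e-04). AKR1C4, the hepatic member of the AKR1C cluster, was at 2.18 ± 0.200 FPKM in KO1 and 2.43 ± 0.422 in KO2, with 0 reads in both WT libraries, which puts the knockout mean at least 29.2-fold higher than a floor of 3 reads per library. Its coding sequence is 87.8% to 88.5% identical to those of AKR1C1, AKR1C2 and AKR1C3, with which it may share reads. AKR7A2, which reduces succinic semialdehyde, rose 1.41-fold, and AKR7A3, an aflatoxin aldehyde reductase, fell 4.66-fold; these neighbouring paralogs may share reads. The calls of AKR7A2 in KO1 (0.51 ± 0.13 log2) and KO2 (0.45 ± 0.13) were lost in some fits with 1 library fewer. The KO1 call was lost without WT replicate 1 (0.34) or KO1 replicate 2 (0.41), and the KO2 call without WT replicate 1 (0.29), KO2 replicate 1 (0.43) or KO2 replicate 2 (0.48). AKR1A1, a general aldehyde reductase, was at 28.98 ± 0.875 FPKM in KO1 and 25.9 ± 0.501 in KO2, against 31.5 ± 0.739 in WT; its call for the average (-0.19 ± 0.03) was lost under quantile normalization and under total reads as the only scaling, and its sign in KO1 flipped under both.

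Of 14 tested genes of other glutathione peroxidases, catalase, peroxiredoxins and superoxide dismutases, 10 rose, 3 fell and 1 was not called (71.4% higher and 21.4% lower, against 40.5% and 40.1% of all tested genes), with a median of 0.71. Those that fell were GPX3 and the superoxide dismutases SOD1 and SOD3, the last 2 named after their values were seen. GPX1 rose to 287 ± 6.44 FPKM in KO1 and 280 ± 10.9 in KO2, against 65.3 ± 4.21 in WT (2.10 ± 0.05 log2, limma adjusted p = 1.49e-06), opposite to GPX2. GPX4, which reduces lipid hydroperoxides, rose 1.69-fold and catalase (CAT) 2.27-fold. GPX3, the secreted form, fell to 0.330 ± 0.0643 FPKM in KO1 and 0.156 ± 0.0526 in KO2, against 14.3 ± 0.806 in WT. PRDX4, the peroxiredoxin of the endoplasmic reticulum, rose 2.72-fold. PRDX6 was at 170 ± 1.26 FPKM in KO1 and 318 ± 2.14 in KO2, against 113 ± 1.49 in WT, and was higher in KO2 than in KO1 (0.90 ± 0.02 log2, adjusted p = 1.94e-04). GPX1 has processed pseudogenes in the genome that may share its reads.

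In glutathione synthesis and the thioredoxin system, 8 of 15 genes rose and 7 fell (53.3% and 46.7%, against 40.5% and 40.1% of all tested genes), with a median of 0.21. GCLC, the catalytic partner of GCLM, rose to 7.58 ± 0.273 FPKM in KO1 and 7.01 ± 0.219 in KO2, against 5.37 ± 0.0845 in WT (0.38 ± 0.04 log2, limma adjusted p = 3.85e-04). SLC7A11, the cystine transporter, was at 10.7 ± 0.199 FPKM in KO1 and 6.66 ± 0.298 in KO2, against 10.3 ± 0.742 in WT: it fell in KO2 and was not called in KO1 (0.05 ± 0.06). Thioredoxin (TXN) fell 2.55-fold for the knockout mean and its mitochondrial form TXN2 1.91-fold, while thioredoxin reductase TXNRD1, a known NRF2 target, rose 2.08-fold. GGT1, which breaks down extracellular glutathione, rose to 13.5 ± 0.404 FPKM in KO1 and 13.1 ± 0.627 in KO2, against 1.53 ± 0.182 in WT.

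Of 13 tested glutathione S-transferases, 7 rose and 6 fell (53.8% and 46.2%, against 40.5% and 40.1% of all tested genes). GSTM1 was at 22.2 ± 0.351 FPKM in KO1 and 24.0 ± 0.465 in KO2, from 2564 and 2303 reads, with 0 reads in both WT libraries. Its knockout mean lay at least 384-fold higher than the floor of 3 reads per library (limma adjusted p = 9.81e-08). GSTM1 is known to be absent from the germline of many people, and its close paralogs may share reads. GSTM3 rose to 18.9 ± 0.275 FPKM in KO1 and 18.7 ± 0.374 in KO2, against 1.11 ± 0.342 in WT. The membrane-bound MGST3 rose 3.56-fold, whereas MGST1 fell 1.81-fold and GSTO1 2.97-fold.

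Of 28 tested NRF2 regulators and other NRF2 targets, 16 rose, 10 fell and 2 were not called (57.1% higher and 35.7% lower, against 40.5% and 40.1% of all tested genes), with a median of 0.30. NFE2L2 mRNA was at 15.4 ± 0.319 FPKM in KO1 and 11.9 ± 0.00416 in KO2, against 14.3 ± 0.0682 in WT. It was called higher in KO1 with a limma adjusted p of 0.0311 (0.10 ± 0.03 log2), but in KO2 it was called lower, with an adjusted p of 8.66e-04 (-0.25 ± 0.03); the KO1 call was lost without any 1 of the 6 libraries (0.08 to 0.12), and the small negative average (-0.07) turned positive under quantile normalization and under total reads as the only scaling. KEAP1 fell to 8.38 ± 0.545 FPKM in KO1 and 8.34 ± 0.350 in KO2, against 39.2 ± 1.57 in WT (-2.10 ± 0.05, adjusted p = 1.85e-06). MAFK, one of the small MAF proteins that pair with NRF2 on DNA, rose to 180 ± 0.342 FPKM in KO1 and 146 ± 11.2 in KO2, against 12.9 ± 0.156 in WT.

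Named targets moved in both directions. TKT, transketolase of the pentose phosphate pathway, rose 3.86-fold for the knockout mean and the ferritin heavy chain FTH1 rose 2.53-fold, while the epoxide hydrolase EPHX1 fell 4.07-fold. HMOX1, haem oxygenase, was at 8.60 ± 0.238 FPKM in KO1 and 14.5 ± 0.0153 in KO2, against 10.8 ± 0.894 in WT, which was a fall in KO1 with a limma adjusted p of 0.00618 (-0.30 ± 0.06) and a rise in KO2 with one of 0.00198 (0.39 ± 0.06).

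The list that stood furthest from the median of all genes held the alcohol dehydrogenases and the retinoid pathway, in which ALDH1A1 and ALDH1A3 act. Of 20 tested genes 4 rose and 16 fell (80% lower, against 40.1% of all tested genes), and the median was -1.36. Among those that fell, 11 passed a difference of 1 on the log2(FPKM + 1) scale (55% of the 20, against 14.6%). Like the others, this list was chosen with earlier results of these data known, so these shares only describe it. RDH10, which makes retinal from retinol, the step before the ALDH1A enzymes, fell to 1.77 ± 0.0556 FPKM in KO1 and 1.52 ± 0.0254 in KO2, against 28.3 ± 0.800 in WT (-3.47 ± 0.04 log2, limma adjusted p = 2.28e-07). DHRS3, which returns retinal to retinol, fell 5.56-fold for the knockout mean. CRABP2, the carrier that hands retinoic acid to its receptors, fell to 1.87 ± 0.329 FPKM in KO1 and 2.84 ± 0.345 in KO2, against 155 ± 2.98 in WT (-5.56 ± 0.09, adjusted p = 5.18e-07).

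RBP4, the secreted retinol carrier, was the exception among the named genes and rose to 18.8 ± 0.566 FPKM in KO1 and 15.9 ± 0.771 in KO2, against 0.0883 ± 0.0345 in WT (4.07 ± 0.05 log2, limma adjusted p = 2.34e-07). Further genes of the list are given after their values were seen. RARB, a retinoic acid receptor whose gene is a known target of retinoic acid, fell to 0.0760 ± 0.0401 FPKM in KO1 and 0.136 ± 0.0553 in KO2, against 4.99 ± 0.253 in WT. CYP26B1, which degrades retinoic acid, was at 11.3 ± 0.258 FPKM in KO1 and 2.69 ± 0.215 in KO2, against 2.42 ± 0.113 in WT, so it rose in KO1 and was not called in KO2 (KO2 minus KO1 -1.74 ± 0.06, adjusted p = 3.50e-04).

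**Figure D4:**
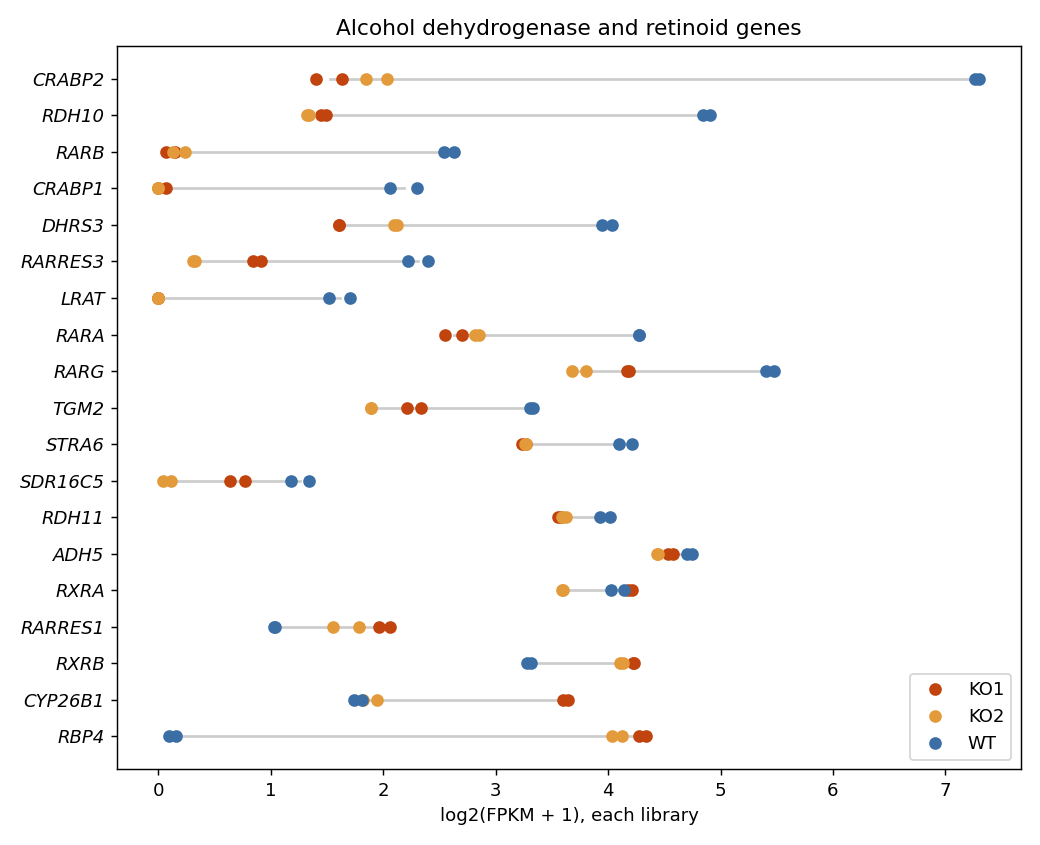
Level of 19 of the 20 tested alcohol dehydrogenase and retinoid genes on the log2(FPKM + 1) scale, 1 point a library for KO1, KO2 and WT, ordered by the difference of the knockout average from WT; grey lines span the group means. Of the genes plotted, CRABP2 and RDH10 lie furthest below WT in both knockout groups, and RBP4 lies furthest above it.

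Between the knockout groups, 17 of the 109 related genes were called higher and 28 lower in KO2 than in KO1, where 11.2% and 15% of all tested genes were called. Leaving out either KO1 library lowered the count of lower genes to 16. Calls in opposite directions from WT in KO1 and KO2 were made for 3 of the 109 related genes (2.75%), against 191 of all 16046 (1.19%). For NFE2L2 and MAFF, which are among these 3, the KO1 calls were weak (limma adjusted p = 0.0311 and 0.0263). Among the members, ALDH3A1 was higher in both KO2 libraries than in both KO1 libraries (0.84 log2), and so was the barely detected AKR1B10. AKR1C2 was lower (-0.47), and so by little were AKR1C3 (-0.09), NQO1 (-0.09) and GCLM (-0.14). ALDH1A1, ALDH1A3, GPX2 and AKR1C1 overlapped. The share of all genes so separated between KO1 and KO2 was not counted, and nothing is read from the number of members.

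Tested protein-coding genes within 1 Mb of a member were counted, with the members themselves left out, to show how its surroundings behaved. Over all tested genes, 40.5% were called higher and 40.1% lower in the knockout average, and the counts below were not tested against these shares. Within 1 Mb of AKR1C3, 1 of 9 tested neighbours was higher, which was AKR1C4, and 8 were lower, with a median of -0.81. Around ALDH1A1 3 of 5 neighbours were higher and 1 lower, and around ALDH3A1 7 of 11 were higher and 3 lower, although both members were lower. Around AKR1B10 all 9 tested neighbours were higher (median 1.37), and around ALDH1A3 5 of 9 were higher and 4 lower. Near GPX2 1 of 12 was higher and 8 lower (median -0.45), near NQO1 7 of 26 were higher and 14 lower, and near GCLM 6 of 13 were higher and 6 lower.

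For each tested member, the protein-coding gene with the most similar profile over the 6 libraries was found by the root mean square difference of log2(FPKM + 1), each profile centred on its own mean. It was BMP4 for ALDH1A1 (0.08), a bone morphogenetic protein at 0.0214 FPKM in KO1 and 0 in KO2, against 231 in WT, and ACTL8 for GPX2 (0.09). For ALDH3A1 it was CDH1 (0.20), the gene of E-cadherin, which was also higher in KO2 (0.494 FPKM) than in KO1 (0.155 FPKM), against 59.6 in WT. CSPG4, a cell surface proteoglycan, was nearest to AKR1C3 (0.04) and CD59, an inhibitor of complement, to AKR1C2 (0.05). PFKFB3 was nearest to ALDH1A3 (0.04), SYT13 to NQO1 (0.03) and SARM1 to GCLM (0.02). The added 1 shrinks the differences of low genes, so genes near on this scale can differ in fold. SYT13 was at 0.136 FPKM in KO1, 0.0622 in KO2 and 4.23 in WT, and NQO1 at 61.0, 57.4 and 291. CD59 was at 25.5, 18.9 and 4.17 FPKM, and AKR1C2 at 6.01, 4.05 and 0.394. Each profile rests on 3 groups of 2 libraries.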

How the data were processed

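RNA of 6 NCI-N87 libraries was measured, 2 each labelled KO1, KO2 and WT. The deposited values are FPKM per gene, computed by the authors; HISAT2 2.0.5, featureCounts 1.5.0-p3 and hg38 are named per the submitters' processing notes, and the sources used here do not give strand and multi-mapping settings. Names, exon lengths and GRCh38 coordinates came from GENCODE v29, and promoters from RefSeq (GRCh38.p14). FPKM times exon length came out as whole multiples of 1 step in each library (100% of values, within 0.1 step), which gave the reads; the FPKM denominator was 0.936 to 1.05 times their total. The design named a count test for counts; as the files held FPKM, limma 3.58.1 in R 4.3.3 was used on log2(FPKM + 1), with group means, a mean-variance trend and all 6 libraries, for genes at 1 FPKM or more in at least 2 libraries. Calls used a Benjamini-Hochberg adjusted p below 0.05; the script was tested on simulated data. Replicate libraries differed beyond counting error (chi-square per degree of freedom 1.80 to 2.46) and each was counted once. Levels are mean ± SD, differences log2 ± SE. The SE and p of the knockout average rest on the spread within groups and leave out the spread between KO1 and KO2.

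The members and gene lists were chosen with earlier results of these data known. Named are all members, from each list up to 5 tested genes with the smallest adjusted p for the knockout average, 12 genes whatever their values (NFE2L2, KEAP1, GCLC, HMOX1, TXNRD1, SLC7A11, ALDH2, AKR1B1, AKR1A1, GPX1, GPX4 and CAT), the gene most like each member, and KRT17 and ERBB2. KRT19, MUC1, CDH17, CLDN18, PDGFRA and COL1A2 are from the marker lists and were picked after their values were seen. Others are marked; results for 2 of the named genes are left out here. Marker lists of leukocytes (sums 0.210 to 0.304 FPKM in KO1, 0.462 to 0.564 in KO2 and 2.12 to 2.23 in WT), endothelium (0.668 to 0.746, 0.717 to 0.722 and 0.377 to 0.443), smooth muscle (3.37 to 3.87, 4.17 to 4.28 and 2.31 to 2.56) and neuroendocrine cells (0.463 to 0.546, 0.623 to 0.630 and 0.217 to 0.274) were low in all groups.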

Additional observations from a re-analysis of the deposited data

Results flagged for a closer look

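3 related genes were called in opposite directions from WT in the knockout groups, and the difference between those groups was itself tested with limma and Benjamini-Hochberg adjustment. NFE2L2 was lower in KO2 than in KO1 by a log2 difference of -0.34 (adjusted p = 0.00226). Its rise over WT in KO1 was small (0.10 ± 0.03, limma adjusted p = 0.0311), and that call was lost with 1 library fewer, as given above. MAFF, a small MAF protein, was at 4.10 FPKM in KO1 and 1.91 FPKM in KO2, against 3.53 FPKM in WT. The log2 difference between KO2 and KO1 was -0.81 (adjusted p = 0.00105). Against WT it was 0.17 ± 0.05 in KO1 (limma adjusted p = 0.0263) and -0.64 ± 0.05 in KO2 (limma adjusted p = 1.46e-04). HMOX1 was higher in KO2 than in KO1 by 0.69 (adjusted p = 0.00213). Such opposite calls were made for 1.19% of all tested genes, and the cause was not tested.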

How the results depend on the processing

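Results were recomputed with a pseudocount of 0.1, no filter on low values, quantile normalization, total reads as the only scaling, voom on the recovered reads, the replicate numbers as a block, KO1 and KO2 as one group, and without each library in turn. Of the counts, 187 stayed within 1.5 times and 9 moved beyond it, all in KO2 minus KO1 without 1 library. Without each library in turn, the lower related genes in KO2 minus KO1 were 16 to 23 (28 with all), and all tested genes were 833 to 1502 higher (1800 with all) and 1016 to 1863 lower (2403 with all). GCLM changed sign relative to WT: its knockout average was 0.015 under quantile normalization and 0.057 under total reads, KO1 was 0.068 and 0.11 under these and 0.0077 with voom, and KO2 under total reads was 0.000029; without each library KO1 ran from -0.045 to 0.019. ALDH1A3 in KO2 minus KO1 was 0.012 under total reads and -0.079 to 0.064 without each library. NFE2L2 averaged 0.022 under quantile normalization and 0.066 under total reads, and AKR1A1 in KO1 was 0.028 and 0.015. Total reads as the only scaling raised the median difference of all genes to 0.14, against 0.02. Of the differences of the tested members, 284 moved by less than 1 SD between replicates, 97 moved further and 11 changed sign. The replicate numbers did not pair the samples: the correlations of same-numbered deviations were 0.0191 for KO1 and WT, -0.00406 for KO2 and WT and -0.0383 for KO2 and KO1. With the replicate block, 53 related genes were called higher and 50 lower in the knockout average, and 15 higher and 25 lower in KO2 minus KO1. ALDH1A1 and GPX2 in the knockouts, and AKR1B10 everywhere, rest on 0 to 11 reads per library, which limits their ratios.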
